A study of Homo sapiens with 8 samples.

Results

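The expressed ZNF zinc finger genes were examined in MDA-MB-231, a human cell line of triple-negative breast cancer, and more exactly in 4 lines made from it. They were selected on their level. All protein-coding genes whose symbol is ZNF followed by digits and whose FPKM (fragments scaled to transcript length and to mapped depth) averaged 2 or more over the 8 libraries were taken. This gave 108 of the 506 protein-coding ZNF genes in a table of 36991 genes. Wild-type *DAXX* cDNA was introduced into the WT OE line and *DAXX* cDNA defective for SUMO binding into the DSM OE line, both as lentiviral constructs under the CMV immediate early promoter. The KD line carried an shRNA against *DAXX* under the human H1 promoter, and the control line carried a scrambled shRNA. The lines were made stable under puromycin, and 2 libraries of each were sequenced. The sample titles number these libraries but do not say whether they are separate cultures. The paper states biological replicates for its gene expression assays in general, without naming these libraries. The submitters' treatment notes speak of triplicates and their design of duplicates. The control line held no empty cDNA vector, so the construct type and the *DAXX* cDNA cannot be told apart in comparisons of an OE line with control. The letters WT stand in the DSM OE sample titles too, so those samples were assigned by genotype label. The p-values below rest on the spread between the 2 libraries of a line, pooled over the 4 lines and moderated across genes. They do not measure the spread between lines made independently with the same construct.

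ZNF genes encode proteins with C2H2 zinc fingers, loops that grip a zinc ion and read a few bases of DNA each. The largest group also carries a KRAB box at the N terminus, which recruits the corepressor TRIM28 (KAP1) and with it the H3K9 methyltransferase SETDB1 and HP1 proteins. Many KRAB genes lie in clusters on chromosome 19, and the 3′ exons of many of them are themselves covered by H3K9me3. DAXX, with ATRX, places the histone variant H3.3 at such heterochromatin. Other ZNF proteins carry a SCAN domain for pairing with one another, and some have left transcription altogether and work on ribosomes.

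*DAXX* mRNA stood at 158 and 283 FPKM in WT OE, 64.6 and 93.8 FPKM in DSM OE, 8.60 and 7.30 FPKM in KD, and 25.3 and 37.4 FPKM in control. FPKM does not separate the endogenous gene from the cDNA. Markers of both mesenchymal and epithelial cells were found. *ESR1* and *PGR*, the estrogen and progesterone receptor genes, were listed at 0 throughout, *CDH1* was at or near 0, and *AXL* was between 99.2 and 194 FPKM. The keratin genes *KRT8* (22.9 to 47.8 FPKM), *KRT18* (60.9 to 92.5 FPKM) and *KRT19* (81.8 to 297 FPKM) were present in every library. *VIM* was 39.1 FPKM in KD replicate 1, against 682 to 1328 FPKM in the other libraries, and the mesenchymal list of 5 that holds it summed to 944 to 1350.2 FPKM in WT OE, 1473 to 1548 in DSM OE, 229 to 1149.7 in KD and 966 to 1085 in control. Of the leukocyte and fibroblast markers, *CD3E* and *LUM* were listed at 0 and *PTPRC* and *DCN* were at or near 0, while *COL1A1* was at 3.15 to 5.17 FPKM. The leukocyte list of 3 summed to 25.1 to 29.98 FPKM in WT OE, 37.2 to 39.3 in DSM OE, 44.03 to 48.5 in KD and 42.2 to 52.8 in control, nearly all of it *CD68*, which was called lower in WT OE than in KD (-0.73, adjusted p = 0.0312 by limma) and control (-0.76, adjusted p = 0.0474). The epithelial list of 5 genes summed to 331 to 401 FPKM in WT OE, 394 to 409 in DSM OE, 175 to 198 in KD and 323 to 363 in control, with *KRT19* lowest in KD. The fibroblast list of 5 summed to 4.65 to 6.03 FPKM in WT OE, 5.48 to 5.71 in DSM OE, 6.41 to 6.74 in KD and 7.55 to 7.66 in control, and in it *COL3A1* was at or near 0 in both OE lines and at 2.01 to 2.54 FPKM in KD and control. The part of these genes in the ZNF values was not tested. The depth of the libraries is unknown. Relative to control replicate 1 it was estimated at 0.917 to 1.17.

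Most expressed ZNF genes were present at low levels. Their mean FPKM had a median of 3.88, with the lowest at 2.04 and the highest at 43.98. *ZNF622*, whose yeast homologue matures the 60S ribosomal subunit, was the highest. *ZNF358* (mean 41.9 FPKM) and *ZNF593* (26.5 FPKM) followed, and then *ZNF664*, *ZNF282*, *ZNF428*, *ZNF581*, *ZNF598*, *ZNF787* and *ZNF768* between 12.1 and 14.8 FPKM. Just inside the limit were *ZNF304* (2.04), *ZNF12* (2.05) and *ZNF444* (2.06 FPKM), and just outside it *ZNF839* (2.00), *ZNF669* (1.99) and *ZNF263* (1.98 FPKM). A line mean of 2 or more was reached by 105 members in WT OE, 100 in DSM OE, 92 in KD and 100 in control, and by 82 members in every line. Thus 26 members owe their place to the level in some of the lines. All 108 passed the filter for testing (FPKM of at least 1 in at least 2 libraries).

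**Figure D1:**
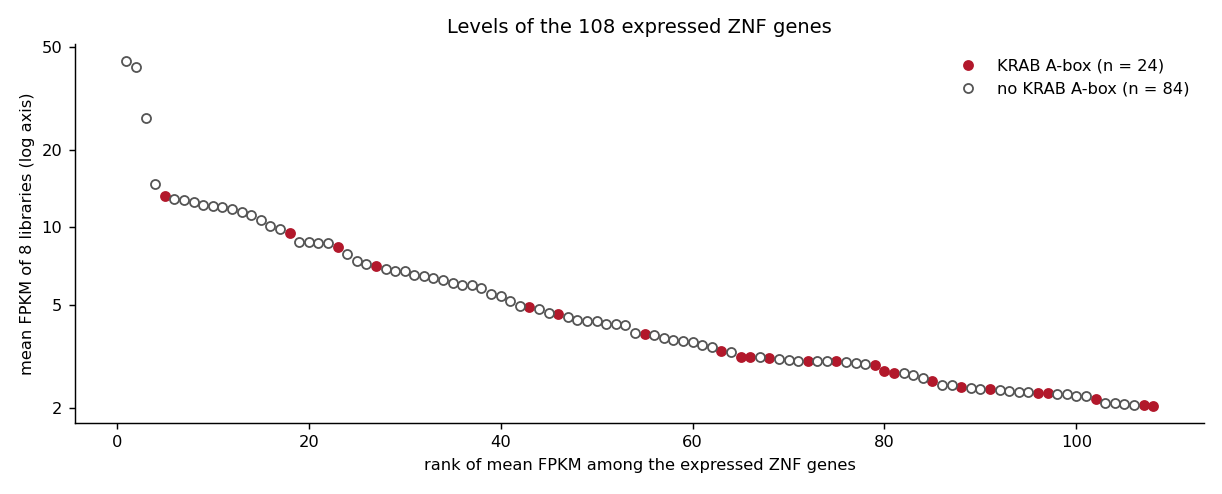
Mean FPKM of the 108 expressed ZNF genes over 8 libraries (log axis) against their rank, with KRAB genes filled and other genes open. The 24 KRAB genes had a median of 3.04 FPKM and the 84 others a median of 4.36 FPKM.

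A KRAB A-box was found in the translated sequence of 24 members (22.2%), and of 297 among the 398 ZNF genes under a mean FPKM of 2 (74.6%). The box was scored as matches to 20 conserved positions, with at least 13 required. Members under that score are counted below as without KRAB, and a box that departs from these positions would be missed. *ZNF205* (12 matches), *ZNF394* (9) and *ZNF496* (8) are among them. KRAB members had a median of 10 finger matches and the other members a median of 6. Chromosome 19 held 32 members, 12 of them with KRAB. SCAN was searched with a single strict pattern (LExxVLEQF, x being any residue), which matched *ZNF24*, *ZNF394*, *ZNF444* and *ZNF496*. A SCAN domain that departs from this pattern would be missed.

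The summed FPKM of the members was 691 and 621 in WT OE, 653 and 725 in DSM OE, 663 and 638 in KD, and 632 and 626 in control. WT OE spanned the sums of control and overlapped KD and DSM OE, and both control sums were below those of KD and DSM OE. As these are bulk samples, fewer cells expressing a gene and less RNA per cell cannot be told apart. A gene was called when its adjusted p was under 0.05 in limma, fitted to log2(FPKM + 1) of all 10465 genes tested, and fold changes are given on that log2 scale. The comparisons of WT OE, DSM OE and KD with control share the 2 control libraries, and those of WT OE share the WT OE libraries.

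The comparison with the most ZNF calls was WT OE against KD, the pair of lines farthest apart in *DAXX* mRNA. In WT OE, 10 members rose and 4 fell relative to KD. Among all genes tested, 5.78% were called higher and 5.91% lower. The median log2 fold change of the members was 0.06, against 0.00 over all genes tested. Of the 10 members that rose, 7 were among the 24 with a KRAB box. The level limit of 2 used the WT OE and KD libraries too. Of these 7, *ZNF304*, *ZNF561*, *ZNF436*, *ZNF480* and *ZNF627* were under it in KD (means 1.15, 1.33, 1.47, 1.92 and 1.95 FPKM). They entered the set through lines where they were higher, so the counts are a description. No KRAB member was called lower by limma (1 at an unadjusted p under 0.05). The KRAB members had a median log2 fold change of 0.28, with 18 of 24 above 0. The 84 members without KRAB had 3 called higher, 4 called lower and a median of 0.03. The classes were compared with the values known, and the counts describe them without a test between classes.

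Within the KRAB members, those on chromosome 19 carried most of the calls. Of the 12, 6 rose in WT OE relative to KD (*ZNF304*, *ZNF480*, *ZNF561*, *ZNF627*, *ZNF791* and *ZNF792*), with a median log2 fold change of 0.47 and 11 of 12 above 0. Of the 12 KRAB members on other chromosomes, *ZNF436* rose, and the median was 0.07. The 20 members on chromosome 19 without KRAB had no call by limma (3 higher and 0 lower at an unadjusted p under 0.05) and a median of -0.02. The 605 other genes tested on chromosome 19, none of them a ZNF gene, had 20 called higher, 22 called lower and a median of -0.08. The 41 members with 7 or more finger matches but no KRAB had 1 called higher, 1 called lower and a median of 0.04.

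**Figure D2:**
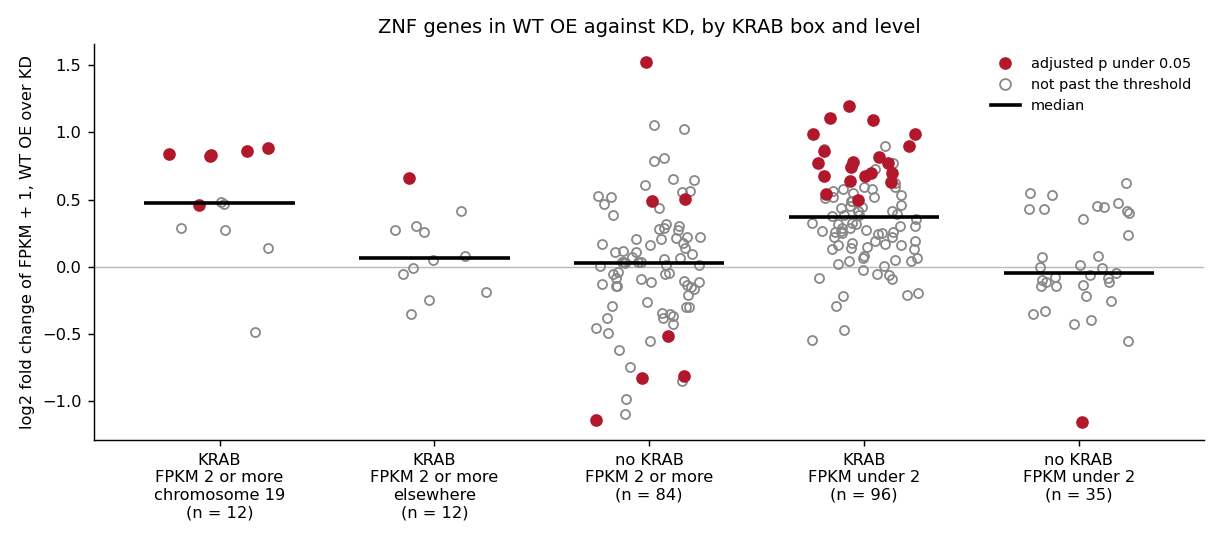
Log2 fold change of FPKM + 1 in WT OE over KD for each tested ZNF gene, by KRAB box, level and chromosome, with called genes filled and the median of each class as a bar. The medians were 0.47 for KRAB members on chromosome 19, 0.07 for KRAB members elsewhere, 0.03 for members without KRAB, 0.37 for KRAB genes under a mean FPKM of 2 and -0.05 for the other ZNF genes under it.

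Promoter sequences are shown for the KRAB members on chromosome 19 that rose in WT OE relative to KD and hold a CCAAT box, the motif that was frequent among KRAB promoters. They are RefSeq promoters of GRCh38.p14, 250 bases before to 50 after the gene start, written 5′ to 3′ on the gene's strand. Capitals mark CCAAT or its reverse complement ATTGG. The windows are chr19:57351021-57351320, plus strand for *ZNF304*, chr19:34964180-34964479, minus strand for *ZNF792*, chr19:12610670-12610969, plus strand for *ZNF791* and chr19:11597233-11597532, plus strand for *ZNF627*.
ZNF304: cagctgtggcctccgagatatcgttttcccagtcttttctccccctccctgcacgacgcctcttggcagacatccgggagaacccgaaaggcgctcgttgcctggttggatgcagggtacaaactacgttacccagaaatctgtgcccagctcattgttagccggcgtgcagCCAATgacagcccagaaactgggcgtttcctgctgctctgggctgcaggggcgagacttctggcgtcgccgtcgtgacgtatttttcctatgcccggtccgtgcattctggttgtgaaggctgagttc
ZNF792: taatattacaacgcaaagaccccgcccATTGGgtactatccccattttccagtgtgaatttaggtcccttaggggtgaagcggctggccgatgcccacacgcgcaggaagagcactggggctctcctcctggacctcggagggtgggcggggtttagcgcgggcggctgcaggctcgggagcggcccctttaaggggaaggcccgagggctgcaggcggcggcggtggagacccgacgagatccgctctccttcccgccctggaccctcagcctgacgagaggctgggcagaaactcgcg
ZNF791: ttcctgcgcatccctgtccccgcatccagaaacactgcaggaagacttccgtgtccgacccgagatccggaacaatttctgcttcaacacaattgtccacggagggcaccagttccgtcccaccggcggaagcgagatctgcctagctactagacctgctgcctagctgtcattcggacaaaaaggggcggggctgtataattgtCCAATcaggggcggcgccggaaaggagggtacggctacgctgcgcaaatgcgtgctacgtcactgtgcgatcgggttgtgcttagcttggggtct
ZNF627: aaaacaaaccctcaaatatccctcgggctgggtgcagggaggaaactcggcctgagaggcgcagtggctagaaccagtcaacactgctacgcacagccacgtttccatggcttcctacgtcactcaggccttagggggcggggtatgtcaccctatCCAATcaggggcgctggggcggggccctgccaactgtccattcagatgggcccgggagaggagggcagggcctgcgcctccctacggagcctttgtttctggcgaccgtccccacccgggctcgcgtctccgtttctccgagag
The promoter of *ZNF561* held no CCAAT on either strand, and *ZNF480* had no entry. CCAAT, searched on both strands, was in 13 of the 20 KRAB members with a promoter entry (65.0%), in 23 of 70 other members (32.9%), in 37.8% of the tested genes with an entry and in 35.7% of all promoters of the same length. The ETS motif CCGGAAG was in 6 of the 20 (30%), 24 of the 70 (34.3%), 20.9% and 10.7% of the same sets. The partial NRF1 site GCGCATGC was in 2 of the 20 and 3 of the 70, and CTCGCGAG was in 0 and 2 of them. A match is a description of these windows only.

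*ZNF304* encodes a KRAB zinc finger protein. It lies on chromosome 19 of GRCh38.p14 from 57351271 to 57359898 (ENSG00000131845). Its FPKM was 2.86 and 3.08 in WT OE, 1.86 and 1.68 in DSM OE, 1.02 and 1.28 in KD, and 2.35 and 2.21 in control. Both KD libraries were below all others and both WT OE libraries above all others. The log2 fold change was 0.89 in WT OE over KD (adjusted p = 0.00974 by limma, standard error 0.12) and -0.61 in KD over control (standard error 0.12, adjusted p = 0.0367). *ZNF304* was thus the KRAB member called in KD against control, and the call was lost without each of the 8 libraries in turn (-0.70 to -0.52). Its call in WT OE over KD was lost without KD replicate 1 or WT OE replicate 2 (0.80 to 0.97).

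*ZNF561* (chromosome 19, from 9607329 to 9621232) had the smallest adjusted p of the members in WT OE against KD. It stood at 3.15 and 3.14 FPKM in WT OE, 2.48 and 2.52 FPKM in DSM OE, 1.25 and 1.40 FPKM in KD, and 2.22 and 2.16 FPKM in control, with no overlap between any 2 lines. The difference of WT OE from KD was 0.83 on the log2 scale (standard error 0.10, adjusted p = 0.00786 from limma) and was lost as a call without KD replicate 1. Its closest relative, *ZNF562*, with 83.9% identical residues in an alignment over at least 80% of the protein, had 2.74 and 0.901 FPKM in WT OE, 1.99 and 1.79 FPKM in DSM OE, 0.756 and 0.820 FPKM in KD and 2.85 and 2.40 FPKM in control. Reads shared by the 2 genes could be split between them.

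*ZNF792* stood at 6.51 and 6.38 FPKM in WT OE, 6.30 and 5.35 FPKM in DSM OE, 3.25 and 2.96 FPKM in KD, and 4.53 and 4.10 FPKM in control. *ZNF791* had 6.54 FPKM in both WT OE libraries, 5.34 and 4.16 FPKM in DSM OE, 3.07 and 3.36 FPKM in KD, and 3.89 and 4.17 FPKM in control. *ZNF627* had 3.99 and 4.41 FPKM in WT OE, 3.72 and 3.53 FPKM in DSM OE, 1.66 and 2.23 FPKM in KD, and 2.74 and 2.57 FPKM in control. For all 3 genes both WT OE libraries were the highest and both KD libraries the lowest. The log2 fold changes of WT OE over KD were 0.86, 0.84 and 0.82 for *ZNF792*, *ZNF791* and *ZNF627* (adjusted p = 0.0113, 0.0162 and 0.0172 from limma). The first 2 calls were lost without either KD or either WT OE library, and the third without KD replicate 1 or either WT OE library (0.81 to 0.91, 0.79 to 0.89 and 0.68 to 0.97). None of the 3 was called against control, with 0.49, 0.59 and 0.51 for WT OE, and with -0.37, -0.25 and -0.32 for KD.

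*ZNF436*, on chromosome 1, had 2.53 and 3.31 FPKM in WT OE, 3.40 and 3.05 FPKM in DSM OE, 1.296 and 1.65 FPKM in KD, and 2.57 and 2.53 FPKM in control. Here KD alone stood apart, below every other library. WT OE exceeded KD by 0.66 (standard error 0.15, adjusted p = 0.0408 from limma), a call lost without each of the 8 libraries (0.51 to 0.80).

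*ZNF480* (chromosome 19, from 52297169 to 52325922, ENSG00000198464) was the member that differed between the OE lines. Its FPKM was 3.06 and 2.94 in WT OE, 1.44 and 1.39 in DSM OE, 1.78 and 2.05 in KD, and 2.76 and 2.82 in control. WT OE and control were the highest lines, and DSM OE was the lowest. WT OE exceeded DSM OE by 0.73 (adjusted p = 0.0413 by limma, standard error 0.10) and KD by 0.46 (adjusted p = 0.0449), and DSM OE was below control by 0.65 (log2 fold change -0.65, adjusted p = 0.0196). Without each of the 8 libraries in turn the calls of WT OE against DSM OE (0.71 to 0.75) and against KD (0.39 to 0.53) were lost. The call against control was lost without either control or either DSM OE library (-0.67 to -0.64).

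**Figure D3:**
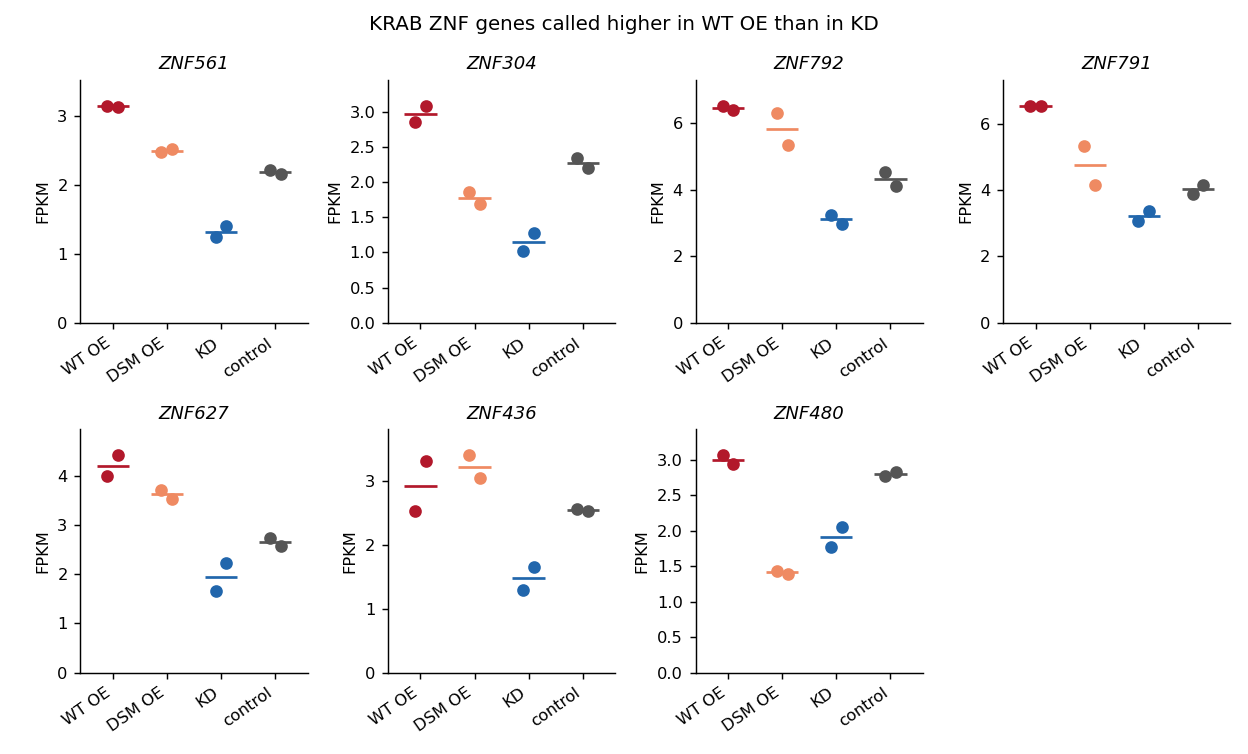
FPKM of the 7 KRAB genes called higher in WT OE than in KD, 1 point per library and a bar at the mean of each line (WT OE, DSM OE, KD and control). In each panel both WT OE libraries are above both KD libraries. *ZNF480* is lowest in DSM OE (1.44 and 1.39 FPKM).

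The remaining KRAB members did not pass the test in this comparison. *ZNF274*, whose protein brings SETDB1 to the 3′ ends of other ZNF genes, had 4.16 and 4.13 FPKM in WT OE, 2.94 and 3.22 FPKM in DSM OE, 2.78 and 2.61 FPKM in KD, and 2.99 and 0.577 FPKM in control. Its WT OE and KD libraries did not overlap, but the control libraries were far apart, and the log2 fold change of 0.48 had a standard error of 0.40. *ZNF8* had a log2 fold change of 0.46 (adjusted p = 0.0511 from limma). *ZNF584* was the chromosome 19 KRAB member below 0 (-0.49), with 1.96 and 5.93 FPKM in WT OE, 6.11 and 4.67 FPKM in KD. The others ran between -0.35 and 0.41.

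Summed over the 24 KRAB members, FPKM was 111 and 106 in WT OE, 96.7 and 99.2 in DSM OE, 89.8 and 86.2 in KD, and 99.6 and 88.5 in control. Both WT OE sums were the highest. Control replicate 2 lay between the KD libraries. The 12 on chromosome 19 summed to 52.9 and 57.9 FPKM in WT OE, 44.2 and 45.5 FPKM in DSM OE, 36.4 and 38.3 in KD, and 42.1 and 37.4 in control. In WT OE over control all 12 had log2 fold changes above 0 (0.08 to 1.04, median 0.36), and limma called none of them. At an unadjusted limma p under 0.05, 6 were higher and none lower, beside 1275 higher and 1086 lower of 10465 genes tested. The level limit used these libraries too. *ZNF274*, which had the highest value, and *ZNF584* were under it in control (means 1.79 and 1.84 FPKM). They entered the set through lines where they were higher, so the counts are a description. In DSM OE over control the median was 0.10 with 7 of 12 above 0, and in KD over control it was -0.20 with 3 of 12 above 0. WT OE exceeded DSM OE in 11 of 12 (median 0.26), with the call of *ZNF480*. The 12 share libraries and are not replicates of one another.

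Of 96 KRAB genes tested below the level limit, 20 were called higher in WT OE than in KD (20.8%, against 5.78% of all genes tested) and none lower by limma (0 lower at an unadjusted p under 0.05), with a median log2 fold change of 0.37. A gene at this level can enter the test through the line where it is high, so these counts are a description. In KD over control 4 of the 96 fell (4.17%, near the 3.69% of all genes tested) and none rose by limma (1 higher at an unadjusted p under 0.05). The median there was -0.18. The 35 tested ZNF genes under the limit without KRAB had 0 called higher and 1 lower by limma in WT OE against KD (5 higher and 3 lower at an unadjusted p under 0.05).

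The number of KRAB calls rested on single libraries. This was not particular to them, as calls over all genes tested also became fewer without each library in turn. The count of 7 called higher in WT OE than in KD became 0 without KD replicate 1, 3 without KD replicate 2, 2 without WT OE replicate 1, 1 without WT OE replicate 2, and 5 without any 1 library of the other lines. Across these the median of the 24 stayed between 0.28 and 0.36, and that of all genes tested between -0.01 and 0.01.

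Among members without KRAB, 3 rose in WT OE relative to KD. *ZNF467*, known in mice as a regulator of fat and bone cell commitment, had 9.08 and 6.47 FPKM in WT OE. It had 8.44 and 9.66 FPKM in DSM OE, 2.43 and 1.65 FPKM in KD, and 2.09 and 3.72 FPKM in control. Every OE library was above every shRNA library. The log2 fold change was 1.52 in WT OE over KD (adjusted p = 0.0214 by limma, standard error 0.27), 1.39 in DSM OE over control (adjusted p = 0.0300) and 1.19 in WT OE over control (adjusted p = 0.0656), which did not pass. *ZNF512* (0.51, adjusted p = 0.0472) had 7.42 and 8.11 FPKM in WT OE, against 4.99 and 5.34 FPKM in KD. *ZNF24*, a SCAN protein known to repress *VEGFA*, had 11.1 and 12.5 FPKM in WT OE, 13.8 and 15.3 FPKM in DSM OE, 8.06 and 8.16 FPKM in KD, and 8.75 and 7.98 FPKM in control. It rose in WT OE over KD by 0.49 (adjusted p = 0.0450) and in DSM OE over control by 0.73 (adjusted p = 0.0172). The other 3 members with a SCAN match were not called in any comparison.

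The 4 members that fell in WT OE relative to KD were *ZNF503* (-1.14), *ZNF775* (-0.83), *ZNF367* (-0.82) and *ZNF593* (-0.52). *ZNF503* encodes a corepressor of the NET family that works without a standard array of fingers. It had 6.62 and 4.97 FPKM in WT OE, 7.48 and 10.1 FPKM in DSM OE, 14.95 and 12.9 FPKM in KD, and 16.5 and 18.0 FPKM in control. Both OE lines were below both shRNA lines in every library. The gene fell in WT OE over control (-1.43, adjusted p = 0.0190 by limma, standard error 0.19) and in DSM OE over control (-0.91, adjusted p = 0.0367). *ZNF703*, the other NET gene and a breast cancer oncogene, was not called, with 18.3 and 5.20 FPKM in WT OE, 9.67 and 11.6 FPKM in DSM OE, 7.14 and 13.05 FPKM in KD, and 12.1 and 4.11 FPKM in control. *ZNF775* had 2.23 and 1.73 FPKM in WT OE, against 4.26 and 4.29 FPKM in KD.

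*ZNF367* had the clearest fall in DSM OE. Its FPKM was 4.05 and 4.33 in WT OE, 1.83 and 2.61 in DSM OE, 8.34 and 7.94 in KD, and 7.74 and 7.46 in control, with DSM OE lowest, WT OE next and the shRNA lines highest without overlap. It fell in DSM OE over control (-1.43, adjusted p = 0.00613 by limma, standard error 0.14) and in WT OE over control (-0.73, adjusted p = 0.0474). The difference between the OE lines did not pass (0.70, adjusted p = 0.0833). The DSM OE call of *ZNF367* was kept without each of the 8 libraries in turn (-1.61 to -1.25), the one member call of 34 for which that held. In WT OE against KD its call (-0.86 to -0.78) and those of *ZNF467* (1.31 to 1.74) and *ZNF593* (-0.54 to -0.50) were lost without either library of the compared lines, and that of *ZNF503* (-1.32 to -0.97) without either KD library or WT OE replicate 2. The calls of *ZNF512* (0.45 to 0.56) and *ZNF24* (0.40 to 0.57) were lost without each of the 8 libraries, and that of *ZNF775* (-0.95 to -0.71) without any library but those of control.

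Against control, DSM OE gave 8 members called higher and 4 lower, beside 5.51% and 5.5% of all genes tested. The median was 0.04, against 0.02 over all genes. Besides *ZNF467* and *ZNF24*, those that rose were *ZNF521* (1.59), *ZNF32* (0.88), *ZNF581* (0.75), *ZNF22* (0.52), *ZNF622* (0.48) and *ZNF804A* (0.48). Those that fell were *ZNF367*, *ZNF503*, *ZNF480* and *ZNF672* (-0.48). The share of members called higher was 7.41%, near that of all genes. Each of the 8 higher calls was lost without either control library and without DSM OE replicate 2. Leaving out DSM OE replicate 1 lost all of them but *ZNF24* and *ZNF521*. Those of *ZNF22*, *ZNF32* and *ZNF804A* were lost without either WT OE library. Those of *ZNF22*, *ZNF467*, *ZNF622* and *ZNF804A* were lost without either KD library. Lower calls numbered 1 without any control or DSM OE library, 2 without either KD library and 3 without either WT OE library.

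*ZNF521*, a cofactor known from blood and neural progenitors, had 3.33 and 5.18 FPKM in WT OE, 4.19 and 6.39 FPKM in DSM OE, 2.13 and 1.79 FPKM in KD, and 1.25 and 0.885 FPKM in control. Both OE lines were above both shRNA lines in every library. *ZNF581* had 17.2 and 17.8 FPKM in DSM OE, against 9.79 and 10.2 FPKM in control, with WT OE between them at 13.7 and 12.3 FPKM. *ZNF32* had 6.77 and 5.63 FPKM in DSM OE, against 2.58 and 3.24 FPKM in control. *ZNF804A*, a gene linked to schizophrenia by association studies, had 3.33 and 3.68 FPKM in WT OE, 3.48 and 3.16 FPKM in DSM OE, 3.01 and 2.95 FPKM in KD, and 2.10 FPKM in both control libraries. Control was lowest for it, and the KD value over control (0.36, adjusted p = 0.111 from limma) did not pass.

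In WT OE against control, 2 members rose and 3 fell (1.85% and 2.78%), near the 2.49% and 2.62% of all genes tested called higher and lower. The median was 0.06. *ZNF521* (1.33, adjusted p = 0.0446 from limma) and *ZNF804A* (0.54, adjusted p = 0.0483) rose, and *ZNF503*, *ZNF35* (-0.76, adjusted p = 0.0446) and *ZNF367* fell. *ZNF35* had 1.08 and 1.52 FPKM in WT OE, 1.88 and 1.77 FPKM in DSM OE, 2.14 and 2.61 FPKM in KD, and 2.94 and 2.82 FPKM in control. Members called higher in the same direction in both OE lines over control were *ZNF521* and *ZNF804A*, and those called lower were *ZNF503* and *ZNF367*. *ZNF521* (1.07 to 1.59), *ZNF804A* (0.48 to 0.60) and *ZNF35* (-0.90 to -0.62) lost these calls without each of the 8 libraries in turn. *ZNF503* lost it without WT OE replicate 2 or a control library (-1.61 to -1.26), and *ZNF367* without any control, KD or WT OE library (-0.77 to -0.69).

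In KD against control, 1 member rose and 1 fell (0.926% each), under the 3.51% and 3.69% of all genes tested. The median was 0.01, and at an unadjusted p under 0.05 there were 6 higher and 12 lower. The member that rose was *ZNF593*, whose yeast homologue helps export the 60S ribosomal subunit. Its FPKM was 24.4 and 23.9 in WT OE, 23.4 and 22.9 in DSM OE, 35.6 and 34.5 in KD, and 23.0 and 24.4 in control. Both KD libraries stood above all the others, which ran from 22.9 to 24.4 FPKM. The log2 fold change was 0.54 in KD over control (standard error 0.08, adjusted p = 0.0205 from limma), a call lost without either control or either KD library (0.50 to 0.58), and -0.52 in WT OE over KD (adjusted p = 0.0173). *ZNF622*, also a ribosome factor, had 41.8 and 42.4 FPKM in WT OE, 52.1 and 49.5 FPKM in DSM OE, 45.4 and 48.3 FPKM in KD, and 35.6 and 36.8 FPKM in control. It rose in DSM OE over control (0.48, adjusted p = 0.0244) and did not pass in KD (0.36, adjusted p = 0.0616). *ZNF598*, the ubiquitin ligase that marks collided ribosomes, was not called in any comparison (mean 12.6 FPKM).

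Between WT OE and DSM OE, the comparison that addresses SUMO binding, *ZNF480* was the 1 member called, and it was higher. None was called lower by limma (9 at an unadjusted p under 0.05). The share of members called higher was 0.926%, near the 0.946% of all genes tested, of which 0.65% were called lower. *DAXX* mRNA itself was higher in WT OE, so the mutation and the amount of *DAXX* mRNA cannot be told apart.

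**Figure D4:**
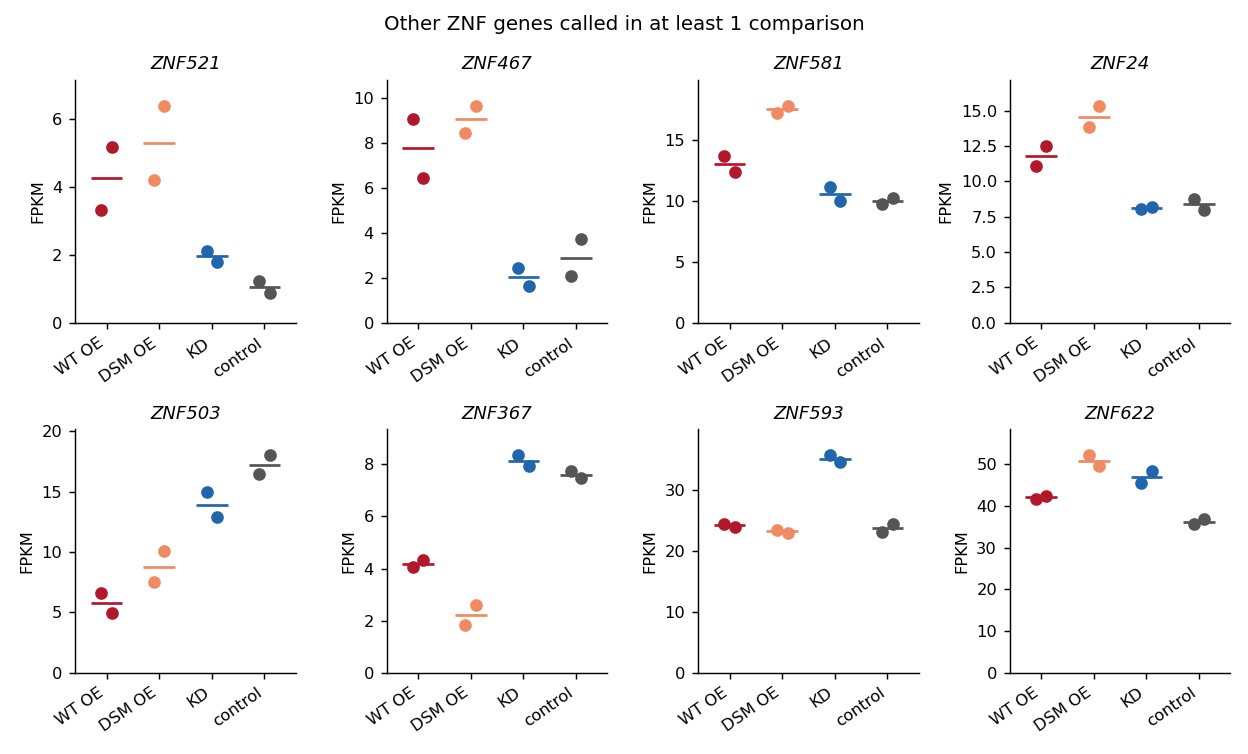
FPKM of 8 ZNF genes without a KRAB box that were called in at least 1 comparison, 1 point per library and a bar at the mean of each line (WT OE, DSM OE, KD and control). *ZNF521* and *ZNF467* are high in both OE lines, *ZNF503* and *ZNF367* are low in both, and *ZNF593* is high in KD (35.6 and 34.5 FPKM).

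Of 31 listed genes of the silencing and H3.3 machinery, 30 were tested. In WT OE over control 1 was called higher and 2 lower (3.33% and 6.67%, against 2.49% and 2.62% of all genes tested), and in KD over control 2 were called lower (6.67%, against 3.69%). The gene called higher was *DAXX* itself, which the construct carries. The 2 called lower in KD were *DAXX*, the target of the shRNA, and *UBN1*. The *DAXX* calls follow from the constructs. *UHRF1*, which brings DNMT1 to replicated DNA, had 18.6 and 17.7 FPKM in WT OE, 12.2 and 12.4 FPKM in DSM OE, 24.4 and 27.6 FPKM in KD, and 33.1 and 34.2 FPKM in control, and was called lower in both OE lines over control (-0.86 and -1.38) and in WT OE over KD (-0.49). *EHMT2*, an H3K9 methyltransferase, had 7.76 and 6.99 FPKM in WT OE, 14.98 and 18.7 FPKM in DSM OE, 13.5 FPKM in both KD libraries, and 15.7 and 16.8 FPKM in control. It was lower in WT OE than in each other line (-1.08 over DSM OE, -0.80 over KD and -1.04 over control). *HIRA* fell in DSM OE over control (-0.59) and *UBN1* in KD over control (-0.63), both members of the other H3.3 chaperone complex. The *UBN1* call was lost without each of the 8 libraries (-0.77 to -0.50), that of *HIRA* without any control, KD or DSM OE library (-0.65 to -0.54), and that of *EHMT2* in WT OE over DSM OE without any library but DSM OE replicate 1 (-1.24 to -0.93). The *EHMT2* calls over KD (-0.86 to -0.73) and control (-1.11 to -0.98) and the *UHRF1* call of WT OE over control (-0.89 to -0.82) were lost without any library of either compared line. In WT OE over KD the *UHRF1* call was lost without any control, KD or WT OE library (-0.58 to -0.41), and in DSM OE over control it was kept without each library (-1.40 to -1.36). *TRIM28* had 69.0 and 124 FPKM in WT OE, 88.8 and 122 FPKM in DSM OE, 178 and 116 FPKM in KD, and 104 and 6.38 FPKM in control, and was not called. The part of these genes in the ZNF values was not tested.

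Some members had duplicates far apart. The 2 libraries of a line differed at least 4-fold in *ZNF496* and *ZNF628* in WT OE, in *ZNF121*, *ZNF444* and *ZNF496* in DSM OE, in *ZNF444* and *ZNF608* in KD, and in *ZNF185*, *ZNF274* and *ZNF740* in control. *ZNF496* had 5.41 and 0.483 FPKM in WT OE and 0.709 and 3.98 FPKM in DSM OE, against 5.39 and 5.84 FPKM in KD and 4.88 and 1.34 FPKM in control. *ZNF185*, which encodes an actin-binding LIM protein, had 3.795 and 21.9 FPKM in control. At least 2-fold differences were found for 4.63% of members in WT OE, 7.41% in DSM OE, 6.48% in KD and 8.33% in control, beside 7.06% to 7.79% of all tested genes with a mean of 2 or more. None of the genes that differed 4-fold was called.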

How the data were processed

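Poly A RNA was measured by RNA-seq in 8 libraries, 2 of each line. The deposited FPKM values, 1 per gene and library, were made by the authors. The paper names HISAT2 for alignment, StringTie for assembling transcripts and Ballgown for FPKM. Beyond that, no method was found in the paper or the labels for the step from transcripts to a single gene-level FPKM. The submitters' processing notes name GRCh38 and hg19. They were used as deposited, without read counts, so depth and counting error are unknown. Ensembl identifiers were matched to symbols for 35797 of 36991 genes. The test covered the 10465 genes that reached an FPKM of 1 in 2 or more libraries. Means of the 4 lines were fitted to log2(FPKM + 1) with limma 3.58.1 in R 4.3.3 (eBayes with a trend, 4 residual degrees of freedom), after a check on simulated data. The two-sided p-values were adjusted by Benjamini-Hochberg over all genes tested within each of 5 comparisons, with a threshold of 0.05. An exact permutation test of 2 libraries against 2 cannot go below 0.333 and was not used. Means are over 2 libraries.

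Members and lists were chosen with earlier results of these data known. Named were, per comparison, up to 5 called members each way, those called the same way in at least 2 comparisons with control, the 10 highest, 3 on either side of the level limit, those with duplicates at least 4-fold apart, called machinery genes, *DAXX* and *TRIM28*. Other members are named where a count is small or for their known role, and were chosen after their values were seen. KRAB, SCAN and fingers were read from GENCODE 44 coding sequences translated for this purpose. RefSeq proteins were not used here. For *ZNF274* only a short form was read, so its finger count is not given. Relatives were searched with BLAST 2.17.0. Positions and promoters are those of RefSeq GRCh38.p14, with promoters for 90 of 108 members.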

Additional observations from a re-analysis of the deposited data

Results flagged for a closer look

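*ZNF480* differed between the WT OE and DSM OE lines, which also differ in the amount of *DAXX* mRNA. It was the 1 member of 108 called higher there (0.926%), near the 0.946% of all genes tested. WT OE gave a log2 fold change over control of 0.08, and DSM OE one of -0.65, a difference of 0.73 that passed limma's test of WT OE against DSM OE (adjusted p = 0.0413). The call was lost without each of the 8 libraries in turn, and the adjusted p ran between 0.0363 and 0.213 over the alternatives.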

How the results depend on the processing

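The direction of every called gene named here was the same under all alternatives run. Of 34 member calls, 1 (*ZNF367* in DSM OE against control) was kept without each library in turn. A fit of the compared lines alone, with fewer residual degrees of freedom, called 0 members in all 5 comparisons. In WT OE over KD that fit called 1.41% of all genes tested higher, against 5.78% in the main fit. Counts of members called higher and lower were 1 and 1 (KD over control), 2 and 3 (WT OE over control), 8 and 4 (DSM OE over control), 1 and 0 (WT OE over DSM OE), and 10 and 4 (WT OE over KD, 7 of those higher with KRAB). In the same order, without a filter they were 2 and 0, 0 and 1, 5 and 3, 0 and 0, and 7 and 3 (5 with KRAB, beside 3.19% of all genes tested called higher). With a mean FPKM of at least 2 to be tested they were 1 and 1, 1 and 3, 8 and 4, 0 and 0, and 9 and 4 (6, beside 5.74%). With a pseudocount of 0.1 KD gave 1 and 2, with median scaling KD gave 1 and 3 and WT OE 1 and 3, and with quantile normalization KD gave 1 and 2 and WT OE 1 and 3. Without the variance trend KD gave 1 and 2, and with a robust fit WT OE gave 1 and 3. When a call needed a change beyond 1.3-fold with p under 0.05 before adjustment, the counts were 4 and 9, 12 and 6, 15 and 8, 6 and 5, and 19 and 11 (8, beside 1455 higher and 1501 lower of 10465 genes tested at that p alone). With a level limit of 1 they were 1 and 3, 3 and 4, 11 and 5, 1 and 0, and 23 and 5 (20), and with a limit of 5 they were 1 and 0, 0 and 2, 5 and 3, 0 and 0, and 3 and 3 (0). Leaving out each library in turn gave 0 to 2 and 0 to 1, 0 to 2 and 0 to 2, 0 to 5 and 1 to 3, 0 and 0, and 0 to 6 and 0 to 5 (0 to 5 with KRAB). The causes were not tested.

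The replicate numbers share no deviation between lines (correlations of -0.0612 to 0.0425), so they were not taken as pairs. With the replicate number as a block the counts were 0 and 0, 0 and 0, 3 and 1, 0 and 0, and 6 and 3 (5 with KRAB, beside 3.56% of all genes tested called higher).

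Median shifts of all genes under another scaling were under 0.1. A looser KRAB score (12 of 20 positions) gave 25 KRAB members. The median of the members moved most with the level limit in WT OE over KD, 0.14 at a limit of 1 and -0.01 at a limit of 5. Reads of overlapping or antisense genes cannot be told apart where strand was not used. Among called members this touches *ZNF593*, *ZNF503*, *ZNF35*, *ZNF581*, *ZNF32*, *ZNF436*, *ZNF467* and *ZNF775*. It also touches *ZNF791*, *ZNF792*, *ZNF367*, *ZNF24*, *ZNF521*, *ZNF22* and *ZNF804A*. Of the members, 5 have a relative with at least 80% identical residues.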

Other observations

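Other zinc finger families at a mean FPKM of 2 or more were few. Of all genes tested, 5.78% were called higher and 5.91% lower in WT OE than in KD. Of 11 KLF genes, 3 were called higher in WT OE than in KD and none lower by limma (6 higher and 1 lower at an unadjusted p under 0.05), with a median log2 fold change of 0.34. Of 6 ZSCAN and ZKSCAN genes, 2 were called higher and 0 lower by limma (3 and 0 at an unadjusted p under 0.05), with a median of 0.70. Of 19 ZBTB genes, 1 was called higher and 1 lower (5.26% each, near the share of all genes tested), with a median of 0.02. Of 2 ZFP genes, none was called by limma (1 higher and 0 lower at an unadjusted p under 0.05).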
